A study of Mus musculus with 2 samples.

Results

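Nutrient transporters are the carriers and receptors through which a growing cell takes up amino acids, sugar, nucleosides and iron and releases lactate. The 10 genes described here were chosen by name, as carriers known from growing lymphocytes, by a rule that used no measured value but was written with earlier results of these data known. They were found through the gene symbol or gene ID of each array feature, a feature being a spot that carries a 60-base probe. All 10 were measured, by 13 of 22393 features, among 16504 named genes in all. They are the amino acid carriers Slc7a5, Slc3a2, Slc1a5, Slc38a1 and Slc38a2, the glucose carriers Slc2a1 and Slc2a3, the monocarboxylate carrier Slc16a1, the nucleoside carrier Slc29a1 and the transferrin receptor Tfrc.

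Thymocytes, which are T cells in development, came from mice null (-/-) for the gene under study and from wild-type (+/+) mice. The description names thymocytes and the source label thymus. Equal amounts of RNA from 3 mice per genotype were pooled and amplified. Both pools were then hybridised together on 2 arrays with exchanged dyes, the first array with the null pool in Cy5 and the second with it in Cy3. Strain, age and sex are not given in the sources used here, nor is the way the allele was made. With 1 pool per genotype, the arrays make up 1 replicate. Variation among mice is thus unknown, there is no p-value, and every SD in the text describes only how far the 2 arrays lay apart. Values are log2 ratios of null over wild type, given for the first and then the second array. A gene counts as called, higher or lower, if both arrays showed a difference of at least 1.5-fold (0.58 in log2) in 1 direction. That direction is inferred from how the first array was labelled and from signs that the second column had been turned, and no header states it.

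In resting lymphocytes most of these carriers are known to be scarce, and cells that enter growth raise them so that uptake keeps pace with protein and nucleotide synthesis. Myc and the kinase complex mTORC1 are known to drive several of them, and the surface levels of some are also set by trafficking, which RNA does not show. In the thymus, growth and division are concentrated in the early progenitors that pass beta-selection, whereas most double positive cells are small and rest.

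Slc16a1 was the only one of the 10 genes that passed the rule. It encodes MCT1, a proton-coupled carrier of lactate and pyruvate. Its ratio was 0.97 on the first array and 0.68 on the second, a mean of 0.83 (SD 0.20, n = 2 arrays) or 1.77-fold. Both arrays placed it above the 1.5-fold line, on the 1 feature that measured it. The called genes Emb, Txnip and Slc7a11, described below, also rest on 1 feature each. Over all genes, 0.412% were called higher and 1.11% lower, and 38 of the 16504 genes had a higher mean than Slc16a1. None of the 10 genes was called lower. A change in the share of a cell type and a change in RNA per cell cannot be told apart in such pools, here or in the results that follow.

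The promoter of Slc16a1 is shown because this gene alone passed the rule, and 1 of the promoter windows of Slc29a1, which stayed near 0, is shown beside it because it holds the same motif. Both are the 250 bases before an annotated start, read from RefSeq windows of build GRCm38.p6, at chr3:104638414-104638663 on the plus strand for Slc16a1 and at chr17:45595247-45595496 on the minus strand for Slc29a1. Capitals mark CACGTG, the E-box that Myc with Max is known to bind, which reads the same on both strands.
Slc16a1: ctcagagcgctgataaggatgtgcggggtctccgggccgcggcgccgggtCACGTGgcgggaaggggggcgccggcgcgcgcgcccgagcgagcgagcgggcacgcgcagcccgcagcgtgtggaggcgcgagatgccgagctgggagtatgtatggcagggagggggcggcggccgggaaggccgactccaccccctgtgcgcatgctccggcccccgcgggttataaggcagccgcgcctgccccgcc
Slc29a1: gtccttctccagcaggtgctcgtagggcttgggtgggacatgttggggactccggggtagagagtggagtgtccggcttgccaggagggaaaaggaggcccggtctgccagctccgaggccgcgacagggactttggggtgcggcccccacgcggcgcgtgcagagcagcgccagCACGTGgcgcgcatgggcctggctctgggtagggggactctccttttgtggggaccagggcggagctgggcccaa
The E-box of Slc16a1 begins 200 bases before the start and that of Slc29a1 begins 75 bases before it. Of the 10 genes, 6 had windows, 14 in all. The motif was in 2 of these windows (14.3%), against 6.02% of all 32851 windows of this length. By gene, 2 of the 6 held it in any window, against 8.68% of 13223 measured genes with windows. Genes with several windows, such as Slc29a1, have more places to hold it, and 6 genes are few. Windows of Slc2a1, Slc38a2, Slc3a2 and Tfrc held none of these letters. A match is a description of the sequence and not a site of binding.

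**Figure D1:**
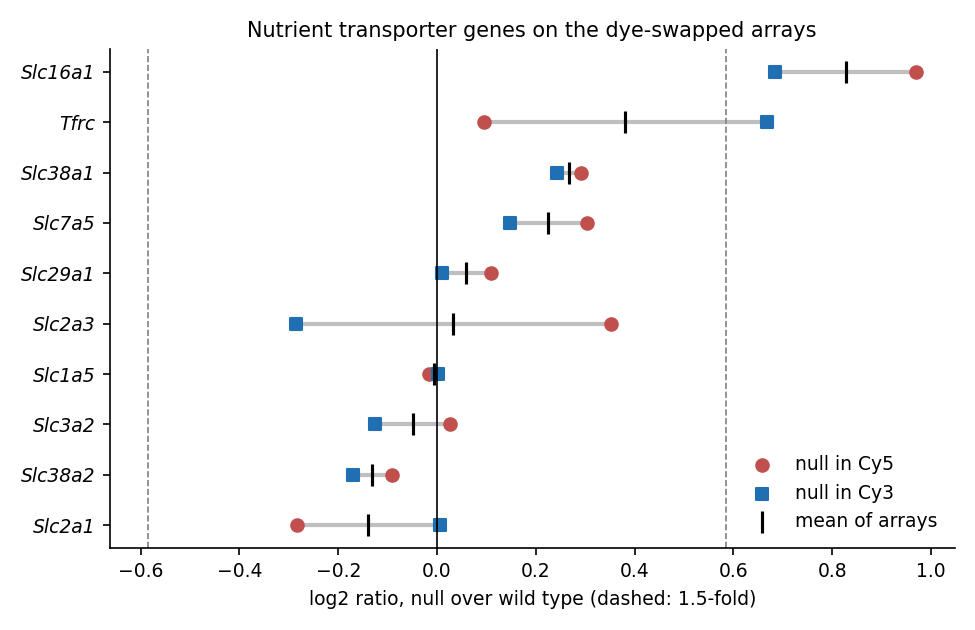
Log2 ratio of null over wild type (horizontal axis) for each of the 10 genes, with a circle for the first array (null in Cy5), a square for the second (null in Cy3) and a bar at their mean; dashed lines mark 1.5-fold. Slc16a1 lies beyond the line on both arrays, Tfrc on 1 array, and Slc2a3 lies on opposite sides of 0.

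Among the 10 genes, 5 lay above 0 on both arrays, 1 lay below 0 on both, and 4 lay on opposite sides. Over all genes, 25% lay above 0 on both arrays and 25% below. The median of the 10 was 0.05, with 0.10 on the first array and 0.0079 on the second, beside 0.00093 over all genes and -0.0072 over 294 measured genes of the Slc families. Without Slc16a1 the median of the other 9 was 0.03. As a group the carriers thus spanned 0, from -0.14 for Slc2a1 to 0.83 for Slc16a1. Sorted by their means, they form 9 pairs of neighbours, and 3 of these pairs kept their order on both arrays. These were Slc16a1 over Tfrc, Slc7a5 over Slc29a1 and Slc3a2 over Slc38a2.

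Slc7a5 and Slc3a2 together form the system L carrier of large neutral amino acids. Slc7a5 encodes LAT1, the light chain that moves leucine and other essential amino acids, and Slc3a2 encodes the heavy chain CD98 that brings it to the surface. Slc7a5 stood at 0.30 on the first array and at 0.15 on the second (mean 0.23, SD 0.11). This is 1.17-fold and did not pass the rule, with 90.4% of all genes below it. Slc3a2 stood at 0.03 and -0.12 on the same arrays (mean -0.05, SD 0.11), on both sides of 0. The light chain exceeded the heavy chain by 0.28 on one array and 0.27 on the other, a pair compared after its values were seen. The same heavy chain also serves 5 other light chains, of which 1 passed the rule. Slc7a11, the cystine and glutamate exchanger known for supplying cysteine for glutathione, was called lower, at -0.88 and -0.86 (mean -0.87, SD 0.01, 1.83-fold). Slc7a6 stood at 0.05, Slc7a7 at -0.07, Slc7a8 at -0.02 and Slc7a10 at -0.05, and none of these passed the rule.

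Slc1a5, Slc38a1 and Slc38a2 carry glutamine and small neutral amino acids. Slc1a5, which encodes the sodium-dependent exchanger ASCT2, stood at -0.02 on the first array and 0.0013 on the second (mean -0.0070, SD 0.01). This was the mean nearest to 0 among the 10 genes. Slc38a1, a sodium-coupled glutamine carrier, stood at 0.29 and 0.24 (mean 0.27, SD 0.03), or 1.20-fold. Its 3 features, from different sequence records, had means of 0.31, 0.24 and 0.25, and each lay above 0 on both arrays. The first of them was higher on the second array (0.52 against 0.10) and the other two on the first (0.41 against 0.07, and 0.36 against 0.14). The agreement of the gene's array values thus rests on averaging features whose spread was wider, with an SD over features of 0.16 on one array and 0.24 on the other. Slc38a2, a related carrier known to be induced when amino acids are scarce, was the only one of the 10 genes below 0 on both arrays, at -0.09 and -0.17 (mean -0.13, SD 0.06). Its 2 features stood at -0.09 and -0.17 as means of the arrays. Slc38a1 exceeded Slc38a2 by 0.38 and 0.41 on the arrays, again compared after the values were seen. By their means, Slc38a1 was the highest and Slc38a2 the lowest of 8 measured genes of the Slc38 family. Slc38a10, at 0.39 and -0.42, lay above Slc38a1 on the first array and below Slc38a2 on the second.

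Slc2a1 and Slc2a3 encode the glucose carriers GLUT1 and GLUT3. Slc2a1 stood at -0.28 on the first array and at 0.0055 on the second (mean -0.14, SD 0.20). It was the lowest of 11 measured genes of its family, though only the first array set it apart from 0. Slc2a3 stood at 0.35 and -0.29 (mean 0.03, SD 0.45), so that its 2 arrays were of nearly equal size and opposite sign. Only 6.59% of all genes had a larger spread between the arrays. Neither gene passed the rule. Txnip, an arrestin known to promote removal of GLUT1 from the surface, was called lower, at -0.83 and -0.71 (mean -0.77, SD 0.08, 1.71-fold).

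The partners and relatives of Slc16a1 gave other values. Slc16a3, which encodes the lactate exporter MCT4, stood at 0.01 and -0.07 (mean -0.03, SD 0.06), and Slc16a1 was the highest of 11 measured Slc16 genes. MCT1 reaches the surface only with an ancillary glycoprotein, basigin or embigin. Emb, which encodes embigin, was called lower, at -0.74 on the first array and -1.02 on the second (mean -0.88, SD 0.20, 1.84-fold). The gap between Slc16a1 and Emb was 1.71 on one array and 1.70 on the other, a pair also compared after its values were seen. Bsg, which encodes basigin, went opposite ways, at -0.48 and 1.18 (mean 0.35, SD 1.17), so its direction cannot be given.

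Slc29a1 encodes ENT1, an equilibrative carrier through which nucleosides enter for salvage. It stood at 0.11 on the first array and 0.01 on the second (mean 0.06, SD 0.07), above 0 on both arrays but only 1.04-fold. Slc29a2, the related carrier ENT2, stood at 0.33 and 0.20 (mean 0.27, SD 0.09) and did not pass the rule either.

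Tfrc encodes the transferrin receptor, through which dividing cells and red cell precursors take up iron. It stood at 0.09 on the first array and 0.67 on the second (mean 0.38, SD 0.41). The second array alone would pass 1.5-fold, at 1.59-fold, whereas the first gave 1.07-fold. On the second array alone, 2.92% of all genes were at least 1.5-fold higher. Erythroid markers were read beside Tfrc, and their part in its value was not tested. Of 15 measured, 3 lay above 0 on both arrays, 5 below and 7 on opposite sides (median -0.02), and none passed the rule. The hemoglobin genes Hba-a1 and Hbb-b2 stood at -0.34 and -1.16 and at -0.52 and -0.73. Alas2 stood at -0.74 and -0.51, and Gata1, the highest of the 15 by its mean, at 0.18 and 0.12. Slc4a1, at 0.19 and 0.08, and Rhag, at 0.20 and 0.01, also lay above 0 on both arrays. Levels of these markers are unknown, because the file holds ratios only.

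**Figure D2:**
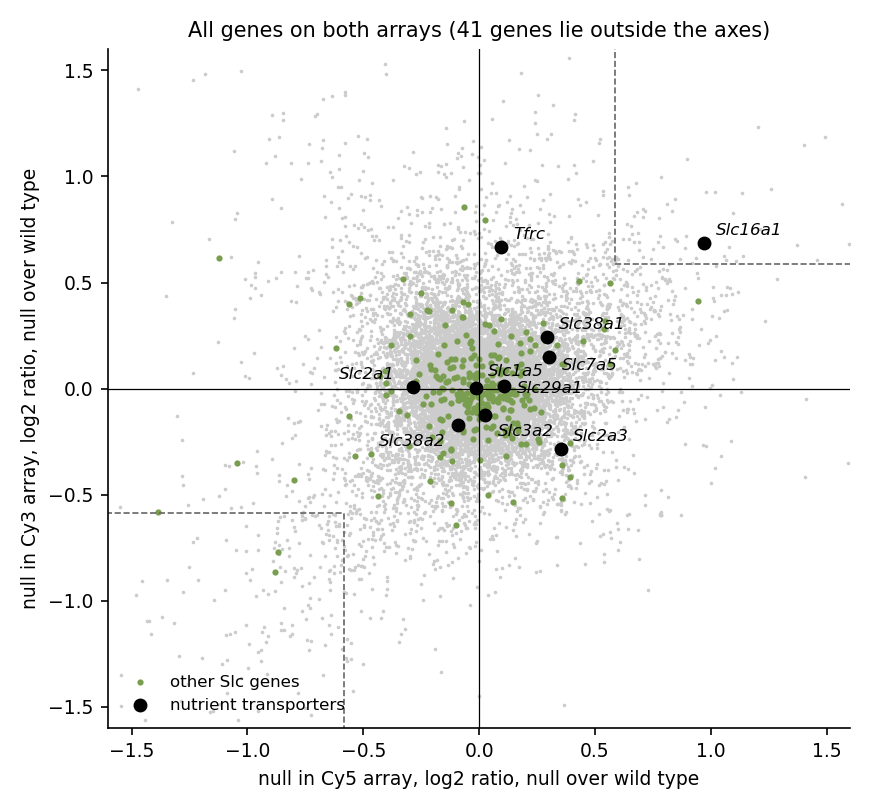
Log2 ratio of null over wild type on the first array (null in Cy5, horizontal) and the second (null in Cy3, vertical) for all 16504 genes in grey, other measured Slc genes in green and the 10 named genes in black; dashed lines enclose genes called at 1.5-fold, and 41 genes lie outside the axes. Slc16a1 is the single Slc gene in the upper right corner, Tfrc is high on the vertical axis only, and Slc2a3 lies at 0.35 and -0.29.

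Over the 294 measured Slc genes, 1 was called higher (0.34%), which was Slc16a1, and 2 were called lower (0.68%), which were Slc7a11 and Slc37a3, of the sugar-phosphate exchanger family (-0.82, SD 0.07). Over all genes these shares were 0.412% and 1.11%. In all, 58 Slc genes (19.7%) lay above 0 on both arrays and 79 (26.9%) below.

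The other carriers of each class gave few called genes. Of 36 other amino acid transporters, 1 was lower and none higher (median -0.01), with 5 above and 11 below 0 on both arrays. Slc7a9, known from kidney and gut, was the highest at 0.53 (SD 0.05), and Slc7a1, the arginine carrier, stood at 0.54 and 0.28 (mean 0.41, SD 0.18). Slc1a4, a carrier of small neutral amino acids, stood at 0.04 (SD 0.04). Of 15 other hexose transporters, none passed the rule (median -0.06), and they ran from -0.32 for Slc50a1 to 0.24 for Slc2a8. Of 14 other monocarboxylate genes, Emb alone passed (median -0.02). Of 5 other nucleoside carriers, none passed (median -0.0070), from -0.21 for Slc28a3 to 0.27 for Slc29a2.

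Of 24 other genes of iron uptake and storage, none passed the rule (median 0.00092), with 9 above and 3 below 0 on both arrays. Slc40a1, the iron exporter ferroportin, was the highest, at 0.95 on the first array and 0.41 on the second (mean 0.68, SD 0.38), and the second array kept it from being called. Slc25a37, which brings iron into mitochondria, was the lowest at -0.33 (SD 0.29). Steap3, an endosomal ferrireductase that acts on transferrin-bound iron, stood at 0.13 (SD 0.11). Ireb2, an iron-sensing protein known to stabilise the Tfrc transcript, stood at 0.13 and -0.29 (mean -0.08, SD 0.30).

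**Figure D3:**
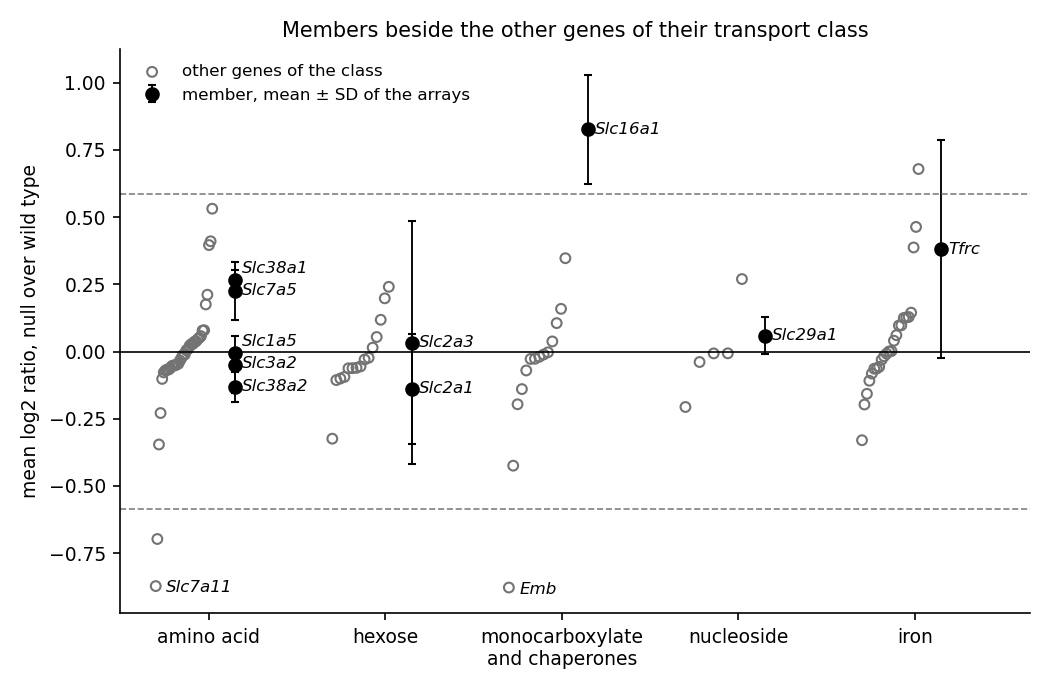
Mean log2 ratio of null over wild type (vertical axis) by class of transport, with open circles for the other genes of a class and filled circles for the 10 named genes; error bars are the SD between the 2 arrays and dashed lines mark 1.5-fold. Slc16a1 is at 0.83, with Emb of the same class at -0.88, and Slc7a11 at -0.87.

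Lists of genes that sense and use nutrients were read in the same way. As a reference for these and later lists, 25% of all genes lay above 0 on both arrays and 25% below. Of 29 genes of nutrient sensing by mTORC1, none passed the rule (median -0.03), 3 lay above and 11 below 0 on both arrays. The list mixes activators and inhibitors of mTORC1, so its median and counts give no direction of mTORC1 activity. The lowest was Sesn3, a stress-induced inhibitor of mTORC1, at -0.45 and -0.61 (mean -0.53, SD 0.11), and the highest was Eif4ebp2, a repressor of translation, at 0.29 (SD 0.06). Of 29 amino acid response genes, many of which the factor Atf4 is known to induce, none passed the rule (median 0.14). By direction, 15 lay above 0 on both arrays, 3 below and 11 on opposite sides. Atf4 itself, which is on the list, stood at -0.47 and 0.75, and Asns and Chac1 had means of 0.0050 and 0.01. Phgdh, the entry enzyme of serine synthesis, stood highest at 0.56 and 0.73 (mean 0.65, SD 0.12), and Nupr1 lowest at -0.19 (SD 0.04). Of 18 genes of glutamine use and polyamine synthesis, none passed the rule (median 0.05), with 9 above and 2 below 0 on both arrays. Odc1, the rate-limiting enzyme of polyamine synthesis, stood highest at 0.49 and 0.68 (mean 0.58, SD 0.13), and Sat1, which starts polyamine breakdown, lowest at -0.27 (SD 0.12). Of 12 genes of transporter turnover, namely ubiquitin ligases and their adaptors, arrestins and a deubiquitinase, Txnip alone passed the rule (median -0.25). Of these 12, 8 lay below and 1 above 0 on both arrays. Nedd4l, a ubiquitin ligase of membrane carriers, was the highest at 0.38 (SD 0.33).

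Lists of other growth genes were set beside the carriers. Myc itself was called higher at 1.26 and 0.94 (mean 1.10, SD 0.23), and it alone passed among 13 genes of the Myc and Max network (median -0.03), of which Mxd4, an antagonist, was the lowest at -0.48 (SD 0.49). Of 27 nucleolar ribosome biogenesis genes, 1 was called higher, Npm1 at 0.87 (SD 0.29), and 18 lay above and 1 below 0 on both arrays (median 0.29). The lowest by its mean was Pes1, at -0.07 (SD 0.11). Of 16 glycolysis enzymes, Tpi1 was higher at 0.82 (SD 0.21) and Ldhb, a subunit of lactate dehydrogenase, lower at -0.85 and -1.14 (SD 0.20, 1.99-fold), with 6 above and 4 below 0 on both arrays (median 0.07). The median of the carriers, 0.05, lay nearer to that of glycolysis than to that of ribosome biogenesis, and whether the lists differ was not tested.

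**Figure D4:**
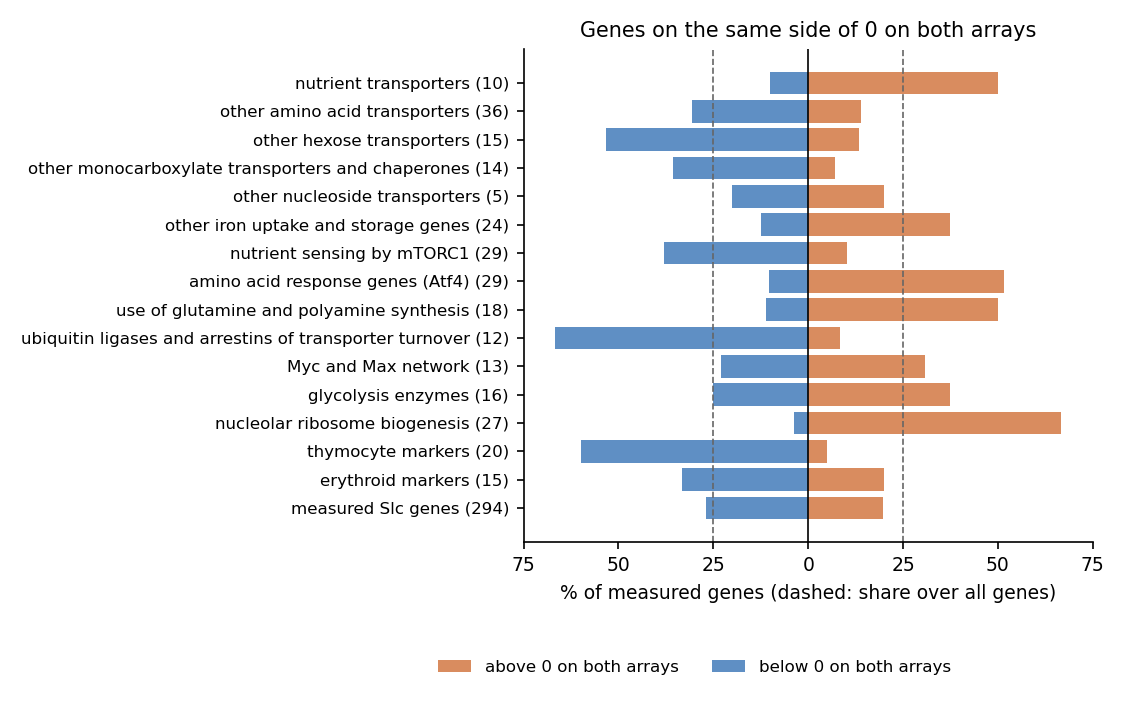
Share of measured genes, in percent, above 0 (right) or below 0 (left) on both arrays in each list, with the number measured in parentheses and dashed lines at the 25% that holds over all genes. The nutrient transporters reach 50% above and 10% below, and nucleolar ribosome biogenesis genes 66.7% and 3.7%.

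Cell type markers were read beside these values, and their part in them was not tested. Of 20 thymocyte markers, 3 were called lower (Cd6, Rag1 and Cd4) and none higher, with 12 below and 1 above 0 on both arrays and means from -1.28 for Cd6 to 0.31 for Dntt (median -0.24). Of 14 B cell markers (median -0.12), Jchain, Fcrla and Cd79a were lower, with means from -1.34 for Jchain to 0.15 for Ighm. Of 18 thymic epithelium markers (median -0.08), Fezf2, Krt5 and Epcam were lower, with means from -1.30 for Fezf2 to 0.09 for Cldn3. Of 20 macrophage and dendritic cell markers (median -0.06), H2-Eb1 and Cd74 were lower, with means from -0.87 for H2-Aa to 0.30 for Cd163. Of 19 endothelium and fibroblast markers (median -0.04), Postn was lower, with means from -1.18 for Postn to 0.34 for Thy1. Thymocytes also express Thy1, which stood at 0.32 and 0.37 and is not counted among the 20 thymocyte markers. None of these markers was called higher, and over all genes 0.412% were called higher and 1.11% lower. Of the B cell markers 10 lay below and 1 above 0 on both arrays, and of the thymic epithelium markers 11 and 0. These counts were 10 and 4 for macrophage and dendritic cell markers, and 8 and 5 for endothelium and fibroblast markers. Over all genes, 25% lay below and 25% above 0 on both arrays. The presence of any marker or carrier in the samples could not be checked, since no intensities were given.

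Over the 16504 genes as a whole, Pearson's r between the arrays was 0.238, a description across genes that are no replicates. Mean ratios had an SD of 0.22 over genes. Subtracting the second array from the first and dividing by 2 gives the dye term, whose SD was 0.18. By the same size rule 0.436% of genes went opposite ways on the arrays, counting both orders of sign. Called in 1 direction were 0.412% higher and 1.11% lower. Any gene called higher has a mean above both SDs by the rule itself, so the mean of Slc16a1 adds nothing here. The mean of Tfrc, 0.38, was also above both, with an SD of 0.41 between its own arrays. Those of Slc7a5, Slc38a1 and Slc38a2 are of similar size to the SDs over genes.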

How the data were processed

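The deposited values are log ratios of 2-colour Agilent arrays. They were read as log10, the usual scale of ratios from Agilent Feature Extraction 7.1, which the submitters' processing notes name, and converted to log2. Per the labels' design text, parameters were defaults, 750 ng of cRNA per dye went on each array and hybridisation took 17 h. Base, centring and direction are unstated. Column medians of the deposited log10 values were -0.00141 (first array) and 0.00112 (second), and nothing was centred. Exact zeros appear as 0 in the first column (80) and as -0 in the second (82), which a change of sign leaves behind, so both columns were read as null over wild type.

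Features with 1 gene symbol (18218 of 22393) were averaged per gene; 16 have several symbols and 4159 none. Gene IDs gave 18175 of them a current symbol from RefSeq (GRCm38.p6), used for names only. The targeted gene is not reported here. Signal over background is unknown, and 2 arrays limit the precision.

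Counts were set beside those over all genes, with no test. The text names the 10 carriers, 12 other genes fixed by name (Fth1 had no feature), and the called, highest and lowest genes of each list. Members and lists were chosen with earlier results of these data known. Slc37a3, Slc7a7, Slc7a8, Slc7a10, Slc38a10, Hbb-b2, Alas2, Slc4a1, Rhag, Atf4, Asns and Chac1 were added after their values were seen. The size rule was tested on simulated data. Alternatives were each array alone, centring, the most changed feature, current platform symbols only, both columns as raw ratios, a log2 base, and thresholds of 1.3-fold and 2-fold. Software was Python 3.11.15 with numpy 2.4.6, pandas 2.3.3 and matplotlib 3.10.9.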

Additional observations from a re-analysis of the deposited data

How the results depend on the processing

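No paired analysis was possible because both arrays carry 1 pair of pools. Of the 10 carriers, 1 was called higher as reported, and between 1 and 2 on 1 array alone, where Tfrc joined on the second. At 2-fold, with both columns read as raw Cy5 over Cy3, or with values read as log2, 0 were called. The number above 0 on both arrays was 5, or 2 on the raw reading; on either array alone 7 lay above 0. The number below 0 on both was 1, and 2 on the raw reading and after centring, where Slc1a5 joined; on either array alone it was 3. None was called lower under any alternative run. On the raw reading Emb turned to 0.14 and Slc16a1 stood at 0.14, Myc at 0.16, Slc7a11 at -0.01 and Txnip at -0.06, since that reading takes what the arrays share for dye, and 4 rather than 18 nucleolar genes lay above 0 on both arrays. With values read as log2, Emb stood at -0.26, Slc7a11 at -0.26, Txnip at -0.23 and Myc at 0.33, so these calls ended too. Of 90 counts and medians of the other lists, 50 moved on the raw reading and 22 on the log2 reading. On the first array alone 39 moved and on the second alone 47, where each count rests on 1 array. Centring and current platform symbols moved none of the 14 genes examined singly (the carriers, Emb, Myc, Slc7a11 and Txnip) by over 1 SD, and the most changed feature moved Slc38a1 to 0.31. No alternative measures the spread between mice.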

Other observations

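Carriers that are on none of the lists above gave a few values of similar size, and are named here after they were seen. Slc5a9, a sodium-coupled sugar carrier whose relatives Slc5a1, Slc5a2 and Slc5a3 are on the hexose list, stood at -1.38 on the first array and -0.58 on the second (mean -0.98, SD 0.57), just short of 1.5-fold on the second array. Slc9a9, an endosomal sodium and proton exchanger, stood at -0.80 and -0.43 (mean -0.62, SD 0.26). Slc30a4, a zinc carrier, stood at -0.44 and -0.51 (mean -0.47, SD 0.05). Slc25a23, a mitochondrial carrier of ATP-Mg and phosphate, stood at 0.43 and 0.51 (mean 0.47, SD 0.05). Slc22a20 was the 1 measured Slc gene that went at least 1.5-fold opposite ways, at -1.12 and 0.61.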
